A study of Mus musculus with 4 samples.

Results

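The T cell receptor of a conventional T cell pairs an alpha and a beta chain, and TRAV16 is a small family of alpha V genes. Productive TRAV16 alpha chains were taken from the receptor contigs of islet T cells, keeping for each cell barcode the productive alpha chain with most UMIs (unique molecular identifiers, which tag the RNA molecules captured before amplification). They were found in 152 of 2934 barcodes with a productive alpha chain, 72 of 1444 at 8 weeks (4.99%, 95% interval 3.92 to 6.24) and 80 of 1490 at 16 weeks (5.37%, 4.28 to 6.64). By size, TRAV16 was number 10 of 20 alpha V families at each age.

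The T cells were isolated from islets of NOD females, which are prone to spontaneous autoimmune diabetes, and all animals were labelled pre-diabetic. Live cells stained for the TCR beta chain were sorted, with DAPI excluding dead cells, at 8 and at 16 weeks of age. Each age gave 1 messenger RNA library and 1 receptor library, so 4 libraries were used, with no replicates and no other genotype or treatment. The number of mice behind each library is not given in the sources used here. No test was therefore possible between conditions, cells of 1 library share their source, and every interval below covers counting error only.

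An alpha chain is made by joining 1 V gene (TRAV) to 1 J gene (TRAJ), with bases trimmed and added at the junction, and the beta chain joins TRBV, D and TRBJ genes. The junction encodes the CDR3 loop, the part of the receptor that varies most between cells. TRAV16, formerly called Valpha17, joined to TRAJ42 is known from Cd8 T cells of NOD islets that recognise a peptide of the islet enzyme IGRP, as in the transgenic receptor NY8.3, whose beta chain uses Vbeta8.1 (TRBV13-3). Antigen recognition was not measured in these libraries.

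The TRAV16 genes lie on the plus strand of mouse chromosome 14 (build mm10) in near-identical copies: Trav16d-dv11 at chr14:53047287-53047821, Trav16n at chr14:53351028-53351621 and Trav16 at chr14:53743104-53743705. Over the last 250 bases of the V genes, Trav16n differed from Trav16d-dv11 at 2 positions and from Trav16 at 3, and the other pair differed at 5. The deposited calls gave 70 and 79 chains to TRAV16N, 2 and 1 to TRAV16D-DV11 and 0 to TRAV16. With so few differing bases the copy named for a chain is uncertain, and the copies are described together.

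The sequences that carry most of what follows are the CDR3 bases of the recurrent TRAV16 receptors. Read 5′ to 3′, they begin at the conserved cysteine codon near the end of the V gene and end at the conserved phenylalanine codon of the J gene. The germline end of Trav16n from that cysteine onward, taken with all germline sequence from GENCODE M21 transcripts, is given first, and then the alpha chains joined to Traj42 (chr14:54175773-54175836), with capitals marking the bases that match germline Traj42.
Trav16n, germline end: tgtgctatgagagaggg
TRAJ42 alpha, 12 cells: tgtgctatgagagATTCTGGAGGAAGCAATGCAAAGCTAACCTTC
TRAJ42 alpha, 1 cell, same protein as the line above: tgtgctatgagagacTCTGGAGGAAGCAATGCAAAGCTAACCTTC
TRAJ42 alpha, 1 cell: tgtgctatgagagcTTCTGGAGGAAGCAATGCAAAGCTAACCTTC
TRAJ42 alpha, 1 cell: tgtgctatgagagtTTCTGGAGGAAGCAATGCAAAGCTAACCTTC
TRAJ42 alpha, 1 cell: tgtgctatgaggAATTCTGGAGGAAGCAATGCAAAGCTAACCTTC
TRAJ42 alpha, 1 cell, 48 bases: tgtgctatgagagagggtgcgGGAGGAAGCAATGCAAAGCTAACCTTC
The 12-cell chain needed no base beyond the germline ends of Trav16n and Traj42. In it 32 of 45 bases matched Traj42, and the match to Trav16n ran over 14 bases, so 1 base could come from either gene. The other chains held from 1 to 6 bases that neither germline end accounts for.

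Other recurrent TRAV16 receptors are shown for their J genes and for their variants, since the same receptor protein was written in different bases. For Traj23 (chr14:54196081-54196140) and the betas paired with it, capitals mark the positions that differ between the variants. For Traj40 (chr14:54177921-54177981) and Traj15 (chr14:54204422-54204481), capitals mark the match to the germline J gene.
TRAJ23 alpha, 5 cells, 8 weeks: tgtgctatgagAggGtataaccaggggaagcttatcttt
TRAJ23 alpha, 2 cells, 8 weeks: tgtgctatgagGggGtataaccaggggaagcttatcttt
TRAJ23 alpha, 3 cells, 16 weeks: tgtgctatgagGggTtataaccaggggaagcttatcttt
TRBV15 beta of the 5 cells: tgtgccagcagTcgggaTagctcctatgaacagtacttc
TRBV15 beta of the 2 cells: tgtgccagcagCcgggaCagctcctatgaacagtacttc
TRBV15 beta of the 3 cells: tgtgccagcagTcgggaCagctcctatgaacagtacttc
TRAJ40 alpha, 6 cells, 8 weeks: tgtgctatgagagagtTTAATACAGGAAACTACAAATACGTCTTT
TRAJ15 alpha, 6 cells, 8 weeks: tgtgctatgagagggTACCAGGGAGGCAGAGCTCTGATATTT
The 120 distinct TRAV16 alphas, counted by V gene, J gene and CDR3 bases, encoded 113 distinct proteins over V, J and CDR3. Of the proteins, 13 were carried by more than 1 cell, 6 of them by alphas with different CDR3 bases, and 4 were found at both ages. The CDR3 of TRAV16 alphas had a median of 42 bases at 8 weeks and 45 at 16 weeks, against 42 at each age for alphas of other families. Bases outside both germline ends had medians of 3 and 2, against 4 and 4.

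The receptor barcodes joined well to the RNA libraries, which held 2043 barcodes and 8659371 UMIs at 8 weeks and 2107 barcodes and 8183747 UMIs at 16 weeks. All 152 TRAV16 barcodes passed the RNA filter, which asked for at least 500 genes and for a mitochondrial share of at most 10%. Their median RNA depth was 3864.5 UMIs at 8 weeks, against 3276.5 in cells with another alpha, and 3233 against 3139.5 at 16 weeks. The alpha chain itself rested on a median of 3 and 2 UMIs, with a range of 1 to 13 and 1 to 12, and on 1 UMI in 19 and 17 barcodes. Every TRAV16 cell held UMIs of the T cell core list (Cd3 chains and the like), and the B cell genes Cd79a and Ms4a1 and the myeloid genes Lyz2 and Csf1r were at 0 in them at both ages. UMIs of 2 of the 8 myeloid list genes were nevertheless in 51 of 72 and 39 of 80 TRAV16 cells, and in 748 of 1366 and 735 of 1396 others for the whole list. Those of the B cell list were in 8 of 72 and 5 of 80, and in 136 of 1366 and 130 of 1396 others. UMIs of acinar genes, which come from exocrine pancreas, were in 8 of 72 and 15 of 80 TRAV16 cells and in 178 of 1366 and 224 of 1396 others. At least 2 productive beta chains, found in doublets and in cells with dual receptors, were in 10 and 9 TRAV16 barcodes. The libraries shared 5 RNA barcodes and 3 barcodes with an alpha chain, and none of these was a TRAV16 barcode.

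Most TRAV16 cells with a lineage call were Cd8 cells. Lineage was set by UMI gates: Cd8-gated cells had a UMI of Cd8a or Cd8b1, the Cd8 coreceptor chains, and none of Cd4, and Cd4-gated cells the reverse. At 8 weeks 35 TRAV16 cells were Cd8-gated, 16 Cd4-gated, 7 had UMIs of both and 14 of neither. At 16 weeks the numbers were 31, 23, 4 and 22. Of gated TRAV16 cells, 68.6% were Cd8-gated at 8 weeks (35 of 51, 54.1 to 80.9), against 23.4% of gated cells with another alpha (189 of 809, 20.5 to 26.4), a difference of 45.3 points (31.3 to 56.7). At 16 weeks the share was 57.4% (31 of 54, 43.2 to 70.8) against 26.1% (210 of 805, 23.1 to 29.3), a difference of 31.3 points (17.7 to 43.9). The intervals of carriers and other cells did not overlap at either age.

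**Figure D1:**
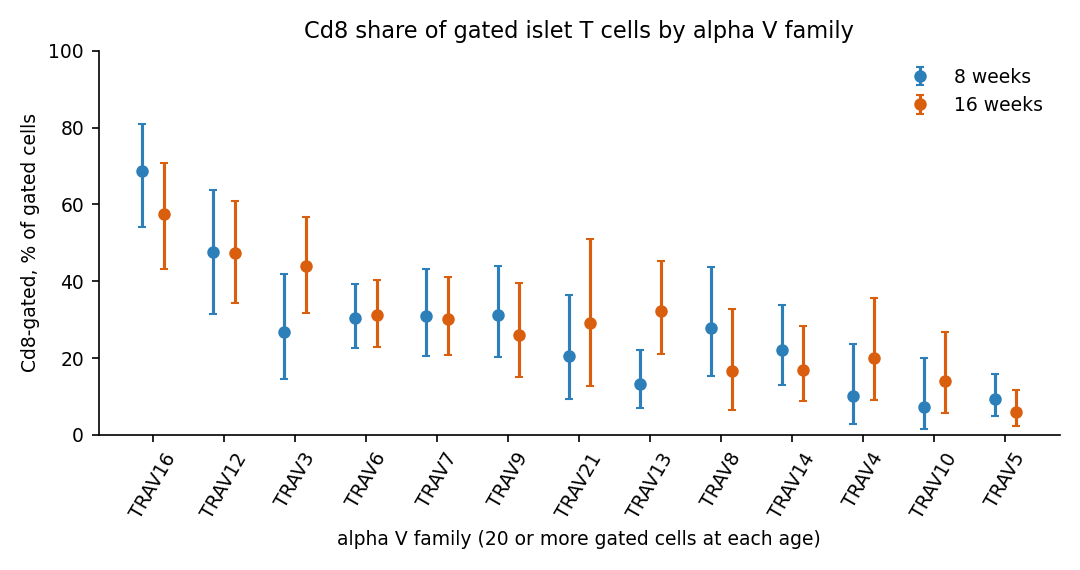
Share of gated islet T cells that were Cd8-gated (y axis, percent) for the 13 alpha V families with 20 or more gated cells at each age (x axis), with exact 95% binomial intervals for counting error as bars. TRAV16 sits highest at both ages, at 68.6% and 57.4%, followed by TRAV12 at 47.5% at both.

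Among 13 alpha V families with 20 or more gated cells at each age, TRAV16 had the largest Cd8 share at both ages, as the plot of Cd8 shares by family shows. TRAV12 came next at 47.5% and 47.5%, and the intervals of TRAV16 and TRAV12 overlapped at both ages. The lowest shares were 7.32% (TRAV10) at 8 weeks and 5.88% (TRAV5) at 16 weeks. Seen from the lineages, TRAV16 supplied 15.6% of Cd8-gated cells with an alpha chain at 8 weeks (35 of 224) and 2.52% of Cd4-gated ones (16 of 636). At 16 weeks it supplied 12.9% (31 of 241) and 3.72% (23 of 618).

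The lineage difference was also present at equal depth per cell. After each cell was thinned to 1500 UMIs, 75% (30 of 40) of gated TRAV16 cells were Cd8-gated at 8 weeks against 34.8% of others, and 70.7% (29 of 41) against 37.2% at 16 weeks. Shallower cells were left out, 0 and 1 TRAV16 cells and 47 and 24 others. Foxp3, the transcription factor of regulatory T cells, had a UMI in 0 of 16 Cd4-gated TRAV16 cells at 8 weeks, which allows a share of cells with a UMI, not of cells expressing the gene, of up to 18.8%, and in 1 of 23 at 16 weeks. In Cd4-gated cells with another alpha the shares were 16.0% (99 of 620) and 14.1% (84 of 595). Cd8-gated cells, in which Foxp3 is not characteristic, gave 0 of 35 and 2 of 31 with TRAV16 and 13 of 189 and 11 of 210 with another alpha. The interval at 16 weeks (0.110% to 21.9%) held the share of the other cells. Over both ages 1 of 39 Cd4-gated TRAV16 cells had a Foxp3 UMI (2.56%, 0.0649% to 13.5%), against 183 of 1215 others (15.1%, 13.1% to 17.2%), at median depths of 3244 and 3657 UMIs. The summed interval for TRAV16 did not hold 15.1%, and the summed Cd8-gated TRAV16 share was 2 of 66 (3.03%). At 1500 UMIs per cell, 0 of 22 Cd4-gated TRAV16 cells had a Foxp3 UMI (interval up to 15.4%), against 34 of 684 others (4.97%). That interval did hold the share of the others. Over all gates at full depth, 8 of 152 TRAV16 cells and 357 of 2762 others had a Foxp3 UMI.

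TRAJ42 was the J gene TRAV16 chains used most at both ages. It was in 10 of 72 TRAV16 alphas at 8 weeks (13.9%, 6.87 to 24.1), against 2.70% of other alphas, a difference of 11.2 points (4.95 to 21.0). At 16 weeks it was in 13 of 80 (16.2%, 8.95 to 26.2), against 2.41%, a difference of 13.8 points (7.27 to 23.5). The excess over all other alphas pooled was similar in size at both ages and larger than counting error at each. Among the 13 families with 20 or more gated cells at each age, TRAV16 had the largest TRAJ42 share at both. TRAV7 came next at 8 weeks with 12 of 130 (9.23%), a share inside the TRAV16 interval, and had 2 of 154 at 16 weeks. At 16 weeks TRAV8 came next with 4 of 64 (6.25%), below the TRAV16 interval.

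Cells with TRAJ42 were mostly Cd8-gated when it was joined to TRAV16 and mostly Cd4-gated when it was joined to another family. Of gated TRAV16 cells with TRAJ42, 8 of 9 and 9 of 12 were Cd8-gated, while of gated cells joining TRAJ42 to another V family 3 of 23 and 3 of 19 were. TRAV16 cells without TRAJ42 were still mostly Cd8-gated, 64.3% at 8 weeks (27 of 42) and 52.4% at 16 weeks (22 of 42). The Cd8 UMIs behind the gate of the 17 Cd8-gated TRAJ42 cells ranged from 1 to 27, with a median of 10.

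**Figure D2:**
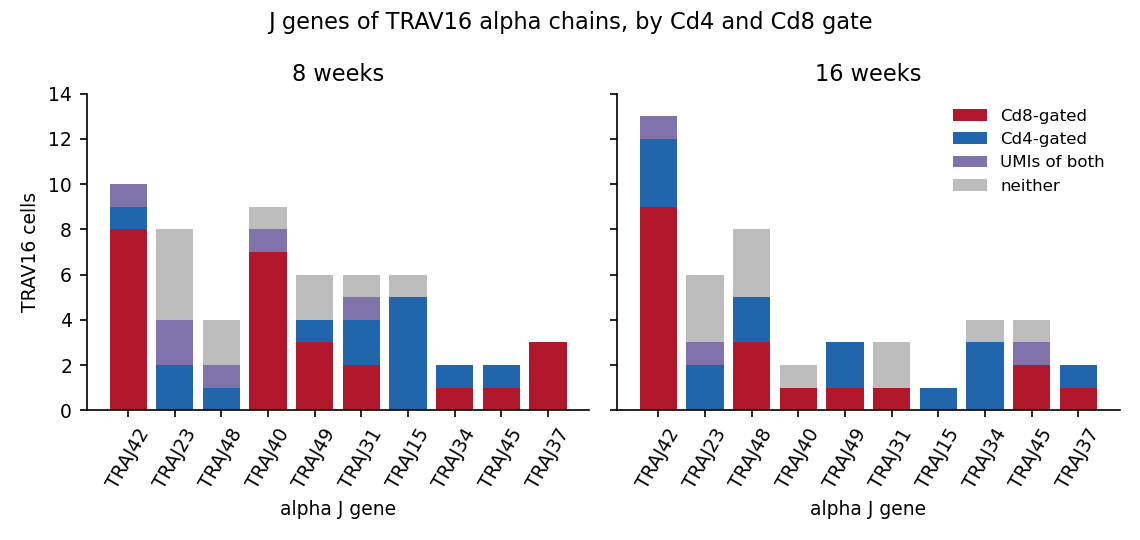
Number of TRAV16 cells (y axis) with each J gene used by 5 or more of them over both ages (x axis), split by UMIs of Cd4 and of Cd8a or Cd8b1, at 8 weeks (left) and 16 weeks (right). TRAJ42 has most cells at both ages, 10 and 13, and is mainly Cd8-gated, while TRAJ23 has no Cd8-gated cell.

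Of the other J genes of TRAV16 chains, some had cells of 1 gate and several had cells of both, as the plot of J genes by gate shows, and no difference between them was tested. Over both ages 35 of 43 J genes in the libraries were joined to TRAV16, 24 at 8 weeks and 30 at 16 weeks. TRAJ40 was used by 9 of 72 chains at 8 weeks (12.5% against 3.13% of other alphas) and by 2 of 80 at 16 weeks. Of its 11 cells 8 were Cd8-gated and 0 Cd4-gated, and 6 of the 11 belonged to the receptor printed above. TRAJ37 had 4 Cd8-gated cells of 5.

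TRAJ23 and TRAJ15 had gated cells on the Cd4 side alone. The 14 TRAJ23 cells held 4 Cd4-gated and 0 Cd8-gated cells, 3 with UMIs of both and 7 with neither. The 7 TRAJ15 cells held 6 Cd4-gated and 0 Cd8-gated cells, and the 6 TRAJ34 cells 4 and 1. TRAJ48 was used by 4 chains at 8 weeks and 8 at 16 weeks (10% against 2.98% of other alphas), with 3 Cd4-gated and 3 Cd8-gated cells. TRAJ31 (9 cells), TRAJ49 (9 cells) and TRAJ45 (6 cells) held cells of both gates.

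Within TRAJ42, most Cd4-gated cells had the longer CDR3, in small numbers and by single Cd4 UMIs. The 18 cells with a CDR3 of 45 bases comprised 15 Cd8-gated and 1 Cd4-gated cells, and the 5 cells with 48 bases comprised 2 and 3. Each of these 3 Cd4-gated cells had 1 Cd4 UMI, so a link of length with lineage rests on those UMIs. The 45-base alpha printed first, with its 1-cell base variant, made up 13 of the 23 TRAJ42 cells, 6 at 8 weeks and 7 at 16 weeks. Of these 13, 10 were Cd8-gated, 1 Cd4-gated and 2 had UMIs of both. No alpha of another V family carried the CDR3 of any TRAJ42 chain of TRAV16. Since this chain was found at both ages it is called the shared TRAJ42 alpha below.

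The shared TRAJ42 alpha was not 1 clone. Its 13 cells carried 10 distinct receptors by the bases of both chains, with 3 beta V genes and 7 distinct beta CDR3 proteins. At 8 weeks its partners were TRBV13-3 in 4 of 6 cells, TRBV13-1 in 1 and TRBV3 in 1. At 16 weeks they were TRBV3 in 5 of 7 and TRBV13-3 in 2. These betas are shown because they differ in V gene, length and centre. Capitals mark the positions that differ among variants of equal length. The pair labelled CDR3 of 2 cells encoded the same CDR3 protein from TRBV13-1 at 8 weeks and from TRBV13-3 at 16 weeks.
TRBV13-3, 3 cells, 8 weeks: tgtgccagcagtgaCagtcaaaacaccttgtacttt
TRBV13-3, 1 cell, 8 weeks: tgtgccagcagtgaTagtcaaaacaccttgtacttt
CDR3 of 2 cells, TRBV13-1, 8 weeks: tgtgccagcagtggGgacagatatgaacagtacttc
CDR3 of 2 cells, TRBV13-3, 16 weeks: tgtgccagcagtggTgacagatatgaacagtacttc
TRBV3, 3 cells, 16 weeks: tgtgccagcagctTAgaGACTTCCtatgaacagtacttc
TRBV3, 1 cell, 16 weeks: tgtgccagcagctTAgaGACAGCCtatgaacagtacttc
TRBV3, 1 cell, 16 weeks: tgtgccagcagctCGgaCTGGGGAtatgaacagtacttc

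Over all 145 paired TRAV16 cells, TRBV3 (chr6:41048290-41048828) was the most frequent beta V gene. It was paired with 8 of 67 at 8 weeks (11.9%, against 4.70% of cells with another alpha, a difference of 7.24 points, 1.34 to 17.2). At 16 weeks it was paired with 14 of 78 (17.9% against 4.14%, a difference of 13.8 points, 6.76 to 23.8). Both intervals lay above 0. TRBV3 went with TRAJ42 in 2 of 10 cells at 8 weeks and in 8 of 13 at 16 weeks.

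TRBV13-3 (chr6:41130147-41130585), the beta V gene of NY8.3, was more frequent with TRAV16 than with other alphas at 8 weeks and not at 16 weeks. It was paired with 8 of 67 cells at 8 weeks (11.9% against 5.08%, a difference of 6.86 points, 0.943 to 16.8). At 16 weeks it was paired with 4 of 78 (5.13% against 5.27%, a difference of -0.143 points, -3.53 to 7.26). It went with TRAJ42 in 4 of 10 cells at 8 weeks and 3 of 13 at 16 weeks. Whether the partner of TRAJ42 differs with age was not tested, since each age is 1 library.

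**Figure D3:**
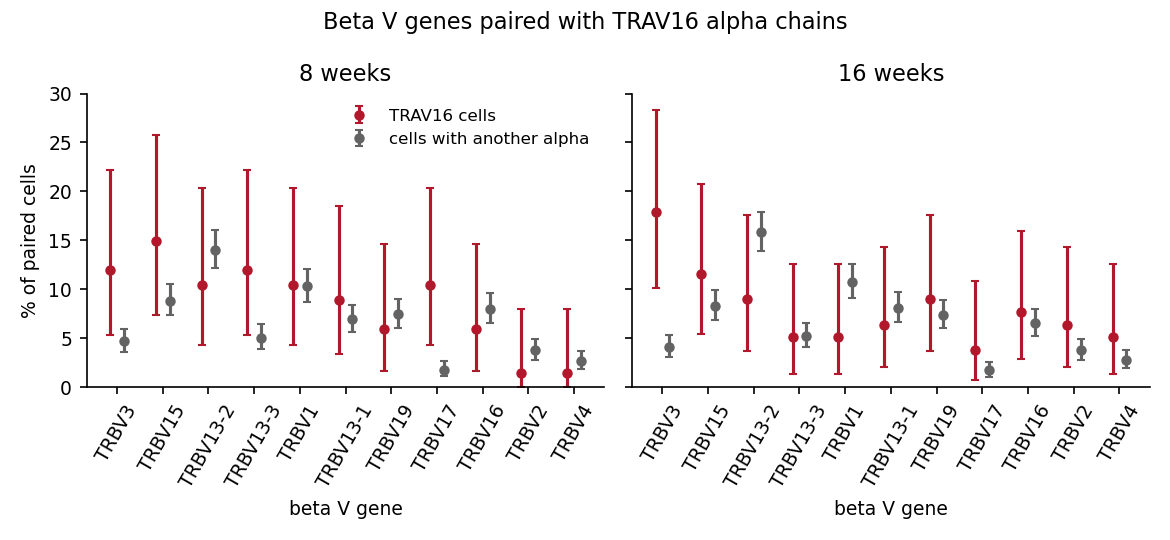
Share of paired cells (y axis, percent) with each beta V gene used by 5 or more TRAV16 cells over both ages (x axis), for TRAV16 cells and for cells with another alpha, with exact 95% binomial intervals for counting error. TRBV3 lies above other alphas at both ages, at 11.9% and 17.9% against 4.70% and 4.14%, and TRBV13-3 only at 8 weeks.

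Some beta partners were seen in 1 gate and others in both, and the difference was not tested. TRBV17 (chr6:41163062-41163556) was in 7 of 67 cells at 8 weeks (10.4% against 1.77%) and 3 of 78 at 16 weeks (3.85% against 1.73%), with 7 Cd8-gated and 0 Cd4-gated cells over both ages. Of the 7 cells at 8 weeks, 6 carried the TRAJ40 receptor. TRBV13-2 was in 14 of the 145, 9 Cd8-gated and 0 Cd4-gated, and TRBV13-3 in 12, 9 and 2. TRBV15 (chr6:41141188-41141658) was in 19 of the 145 (13.1% against 8.56%), with 9 Cd4-gated and 0 Cd8-gated cells, and 10 of the 19 carried the TRAJ23 receptor. With other alphas 13 of 120 gated TRBV15 cells (10.8%) were Cd8-gated. TRBV13-1 had 6 Cd4-gated and 4 Cd8-gated TRAV16 cells, and TRBV19 had 2 and 5. TRBV1, TRBV13-1 and TRBV19 (11 cells each), TRBV16 (10), TRBV2 (6) and TRBV4 (5) were the others used by 5 or more TRAV16 cells. TRBV5 and TRBV20, chosen after their values were seen, were rarer with TRAV16 than with other alphas (4 of 145, 2.76% against 8.22%, and 1 of 145, 0.690% against 5.06%).

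TRAV16 cells were often members of expanded clones at 8 weeks. A clone is the set of barcodes of 1 library with the same V and J genes and CDR3 bases of both chains, and it counts as expanded with 2 or more. At 8 weeks 22 of 67 paired TRAV16 cells were in expanded clones (32.8%, 21.8 to 45.4), against 177 of 1299 others (13.6%), a difference of 19.2 points (8.97 to 31.2). At 16 weeks 9 of 78 were (11.5%), against 87 of 1328 (6.55%), a difference of 4.99 points whose interval reached below 0 (-0.556 to 14.03). Among the 13 families TRAV16 had the largest expanded share at 8 weeks, with TRAV10 close to it at 32.8%, and the second largest at 16 weeks.

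Expanded TRAV16 cells were found in both lineages. At 8 weeks 7 of 14 Cd4-gated and 8 of 34 Cd8-gated paired TRAV16 cells were in expanded clones, against 120 of 592 and 18 of 179 with another alpha. At 16 weeks the numbers were 2 of 22 and 1 of 30, against 58 of 565 and 8 of 200 with another alpha. The 52 receptors at 8 weeks included 7 expanded ones, the largest of 5 cells, and the 73 at 16 weeks included 4, the largest of 3 cells.

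Of the clones of 3 or more cells, 4 were at 8 weeks and 1 at 16 weeks. The TRAJ40-TRBV17-TRBJ2-5 clone held 5 cells, all Cd8-gated, and 6 when the TRAV16 copies are counted as 1 gene. The added cell had UMIs of both lineages. The TRAJ42-TRBV13-3-TRBJ2-4 clone held 3 cells, all Cd8-gated, with the shared TRAJ42 alpha. The TRAJ15-TRBV13-1-TRBJ2-5 clone held 3 cells, 2 of them Cd4-gated, and another 2-cell clone had the same receptor protein in different beta bases. The TRAJ23-TRBV15-TRBJ2-7 receptor formed a clone of 5 cells at 8 weeks and a clone of 3 cells at 16 weeks. In each of the 2 clones 1 cell held Foxp3 UMIs, and that cell had UMIs of both lineages.

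By the chains of most UMIs, no TRAV16 receptor was found at both ages by the bases of both chains, while 1 was by their amino acids, the TRAJ23-TRBV15 receptor. It was carried by 7 cells at 8 weeks and 3 at 16 weeks, in 3 alpha and 3 beta base versions, and in each cell the 2 chains varied together as printed above. Of these 10 cells 3 were Cd4-gated, 0 Cd8-gated, 3 had UMIs of both and 4 of neither, and 2 held a Foxp3 UMI. These 2 were among the cells with UMIs of both Cd4 and Cd8. The 1 at 8 weeks had 2 productive alpha chains and 27468 UMIs, and the 1 at 16 weeks 2 productive beta chains and 9521 UMIs. Its beta protein was in 18 cells in all, 10 with this alpha on top, 2 with no productive alpha and 6 with another top alpha. Of these 6, 2 at 8 weeks held this alpha protein as a further productive chain. Cells with another alpha shared 1 receptor by bases and 2 by amino acids out of 1180 at 8 weeks. With further alpha chains counted, a TRAJ48-TRBV1 receptor of TRAV16 was also found at both ages by amino acids. Its alpha was a further chain with 4 UMIs in 1 barcode at 8 weeks and the top chain of 1 cell at 16 weeks. The beta CDR3 bases of these cells were identical, and the 2-cell TRAJ48 clone at 8 weeks had them too.

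By the alpha chain alone, 1 TRAV16 chain was shared by bases and 4 by amino acids, with TRAJ42, TRAJ23, TRAJ34 and TRAJ48. The 4 were 8.16% of the 49 TRAV16 alphas at 8 weeks and 5.88% of the 68 at 16 weeks, and they were carried by 15 and 12 cells. Among other alphas 28 were shared by amino acids, 2.33% of 1200 and 2.13% of 1314. By bases, the 1 shared TRAV16 alpha was 2% of 50 and 1.41% of 71. The 14 other alphas shared by bases were 1.15% of 1215 and 1.06% of 1320. The TRAV16 chain shared by bases was the 12-cell TRAJ42 alpha, with 6 cells at each age.

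The RNA of the carrying cells was compared with that of cells of the same gate and library with another alpha. UMIs were summed over the cells and scaled to a total of 1000000 (CPM), and log2 ratios added 0.5 UMIs to each sum. In bulk sums of this kind, fewer cells with a gene and less RNA of it per cell cannot be told apart. The Cd8 comparison set 35 TRAV16 cells (225941 UMIs) against 189 others (947131 UMIs) at 8 weeks and 31 (138753 UMIs) against 210 (964832 UMIs) at 16 weeks. Of 4884 genes with 20 or more UMIs at each age, 45 were 2-fold or more higher in TRAV16 cells at both ages (0.921%) and 28 lower (0.573%). The median log2 ratio of all tested genes was 0.10 at 8 weeks and 0.13 at 16 weeks.

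Some genes of inhibitory receptors and of the exhaustion programme were higher in the Cd8-gated TRAV16 cells. Of 11 tested genes in that list, 3 met the 2-fold criterion at both ages in the higher direction and 0 in the lower, against 0.921% and 0.573% of all genes. Another 5 were higher at both ages by less at 1 or both, so that 8 were higher at both and 2 lower. The list's median log2 ratio was 0.69 at 8 weeks and 1.12 at 16 weeks. Pdcd1, which encodes the inhibitory receptor PD-1, was at 332 CPM in TRAV16 cells and 154 in others at 8 weeks, and at 245 against 64.3 at 16 weeks. Its log2 ratios were 1.11 (0.69 to 1.52) and 1.94 (1.28 to 2.56), and it had UMIs in 17 of 35 and 9 of 31 TRAV16 cells.

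Other genes of the list had these values. Tox2, a transcription factor of exhausted and follicular cells, had log2 ratios of 1.61 and 1.27 (-0.15 to 2.41), and Nr4a2, a factor induced by receptor signalling, of 1.34 and 1.12. A single cell gave 58.3% of the Nr4a2 UMIs at 8 weeks, and with equal weight of cells Nr4a2 did not meet the criterion, while Pdcd1, Tox2 and Lag3 did. Tox was at 226 against 83.4 CPM at 8 weeks and 137 against 77.7 at 16 weeks, log2 ratios of 1.44 and 0.84 (0.01 to 1.56). Lag3, an inhibitory receptor for MHC class II, was at 261 against 147 and 274 against 93.3 CPM, and Tigit, an inhibitory receptor for nectin-like proteins, at 221 against 138 and 151 against 44.6. Tnfrsf9 was lower at both ages, at -0.32 and -0.49, with intervals across 0. Of the tested genes, 18 met the 2-fold criterion at both ages with both intervals past 0, among them Pdcd1 and Nr4a2.

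**Figure D4:**
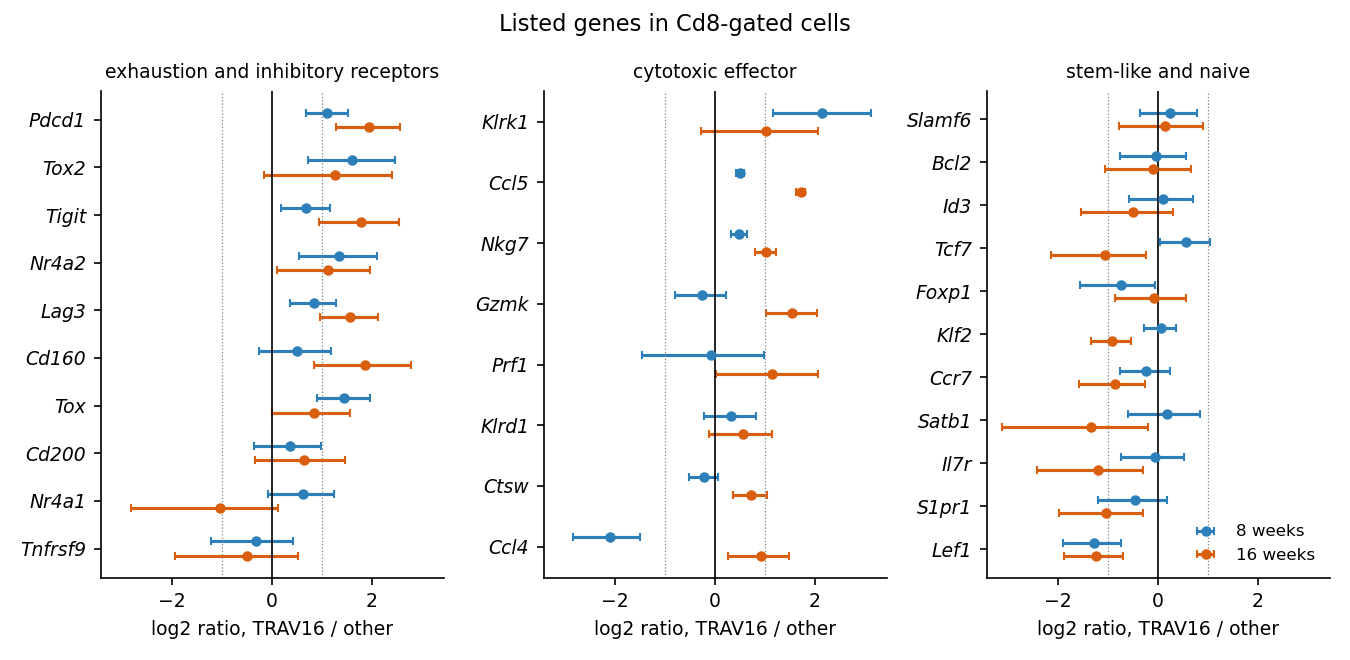
Log2 ratio of summed CPM in TRAV16 against other Cd8-gated cells (x axis) for members of 3 gene lists with 20 or more UMIs in TRAV16 cells (y axis), with exact conditional 95% intervals for counting error and dotted lines at 2-fold. Pdcd1 lies past 2-fold on the right at both ages and Lef1 on the left, while Tcf7 and Ccl4 point opposite ways at the 2 ages.

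The genes of stem-like and naive T cells are in the plot of listed genes. Of 12 tested, 1 was 2-fold lower at both ages (against 0.573% of all genes) and 0 higher, 7 were lower at both and 1 higher, and the medians were -0.06 and -0.98. Lef1, a transcription factor of naive and stem-like T cells, was at 124 against 305 CPM at 8 weeks and 195 against 466 at 16 weeks, log2 ratios of -1.28 and -1.24, and it did not meet the criterion without the largest clones. Ccr7, the chemokine receptor that guides T cells to lymph nodes, had log2 ratios of -0.23 and -0.87. Il7r, the receptor chain for interleukin 7, had -0.07 and -1.20. Rcsd1 and Klf3 were the other genes lower 2-fold at both ages with intervals past 0.

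Of 10 tested cytotoxic genes, 1 met the criterion in the higher direction, against 0.921% of all genes. This was Klrk1, which encodes the activating receptor NKG2D, with log2 ratios of 2.14 and 1.02 (-0.28 to 2.07). Of the 10, 4 were higher at both ages and 0 lower at both, and the list's medians were -0.15 and 1.02. The chemokine Ccl4 was at 92.9 against 409 CPM at 8 weeks and 216 against 116 at 16 weeks. At 8 weeks 1 cell gave 53% of the Ccl4 UMIs of cells with another alpha. Nkg7, a protein of cytotoxic granules, was at 1819 against 1302 CPM at 8 weeks and 1910 against 946 at 16 weeks. The chemokine Ccl5 was at 6360 against 4503 CPM and at 10688 against 3239. Klrc1, which encodes the inhibitory receptor NKG2A, had log2 ratios of 1.80 and 1.81, and Cd7 of 1.16 and 1.35, both chosen from the 18 genes after their values were seen. At 16 weeks 1 cell gave 28% of the TRAV16 UMIs of Klrc1, and 1 cell gave 31.25% of those of Cd7.

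The values of cell division genes rested on few cells. Of 9 tested, 1 met the criterion, Cdk1, the kinase that drives mitosis, and 8 were higher at both ages, with medians of 0.49 and 1.93. Cdk1 had UMIs in 4 and 3 TRAV16 cells, and a single cell gave 61.9% of them at 8 weeks and 66.7% at 16 weeks. Another 7 of the 18 genes, Ube2c, H2afx, Ccnb2, Pttg1, Gmnn, Tuba1c and Fabp5, also drew over 43% of their UMIs from 1 cell at each age. Leaving out the largest TRAV16 clones of each library left 30 Cd8-gated TRAV16 cells at 8 weeks and all 31 at 16 weeks. The list then held 0 genes past 2-fold, with a median of -0.61 at 8 weeks. The median of 1.93 at 16 weeks could not change, since no Cd8-gated cell was removed there.

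The remaining lists held no more than 1 called gene each. Lists of Th1 and interferon gamma genes (6 tested), tissue residency (5), follicular helper (4), regulatory T (5), anergy (5), immediate early and stress (12), interferon response (6), memory S100 and annexin genes (7) and the T cell core (6) had 0 genes called either way. Of the 1 tested B cell gene 1 was lower, Cd79b, with 1 and 2 UMIs in TRAV16 cells. No gene of the NK list or the islet endocrine list reached the UMI minimum. Eomes, a transcription factor of effector and memory Cd8 cells, had log2 ratios of 1.03 and 0.59.

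By the naming rule, the genes with the highest mean log2 ratios that did not rest on 1 cell were Vps13c, Tox2, Ccdc71, Mllt6, Lamb3, Exoc3, Vars, Pdk3, Smg5 and Gak. All but Tox2 were at 64.9 CPM or less in the TRAV16 cells, and 1 or both of their intervals reached below 0. Those with the lowest were Fam173b, Unc45a, Ssbp2, 1600002K03Rik, Tet3, Ncoa4, Rcsd1, Dph6, 4932438A13Rik and Pecam1, the adhesion molecule CD31. Rcsd1 was at 35.4 against 87.6 CPM at 8 weeks and 7.21 against 70.5 at 16 weeks, and of these 10 it was the 1 whose intervals lay below 0 at both ages. Intervals this wide go with sums of few UMIs.

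Within the Cd8-gated TRAV16 cells, the inhibitory receptor genes were highest in the TRAJ42 cells and in the TRAJ40-TRBV17 clone, groups that were split off after earlier values had been seen. Over both ages, Pdcd1 was at 409 CPM (305 to 538) in the 17 Cd8-gated TRAJ42 cells and at 642 (419 to 941) in the 5 cells of the TRAJ40 clone. In the remaining 44 Cd8-gated TRAV16 cells it was at 160 (110 to 226), and in the 399 Cd8-gated cells with another alpha at 109. By age, the TRAJ42 cells had 404 CPM of Pdcd1 at 8 weeks and 416 at 16 weeks, the remaining TRAV16 cells 181 and 132, and other alphas 154 and 64.3. The TRAJ40 clone was found at 8 weeks. These sums of 5 to 17 cells have no replicate, and their intervals leave out variation between cells.

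Other genes of the programme were also higher in the TRAJ42 cells and in the TRAJ40 clone than with other alphas. Both ages were summed here, while the TRAJ40 clone had cells at 8 weeks alone. Tox was at 257 CPM in TRAJ42 cells and 543 in the TRAJ40 clone, against 80.2 in the remaining TRAV16 cells and 80.5 with other alphas. Lag3 was at 369 and 321 against 190 and 120, and Tigit at 289 and 321 against 110 and 91.0. Gzmk, a granzyme of effector memory cells, was at 409 and 420 against 100 and 165 CPM. Nkg7 was at 2455 and 2864 against 1273 and 1122, and Ccl5 at 10789 and 12321 against 5393 and 3865.

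**Figure D5:**
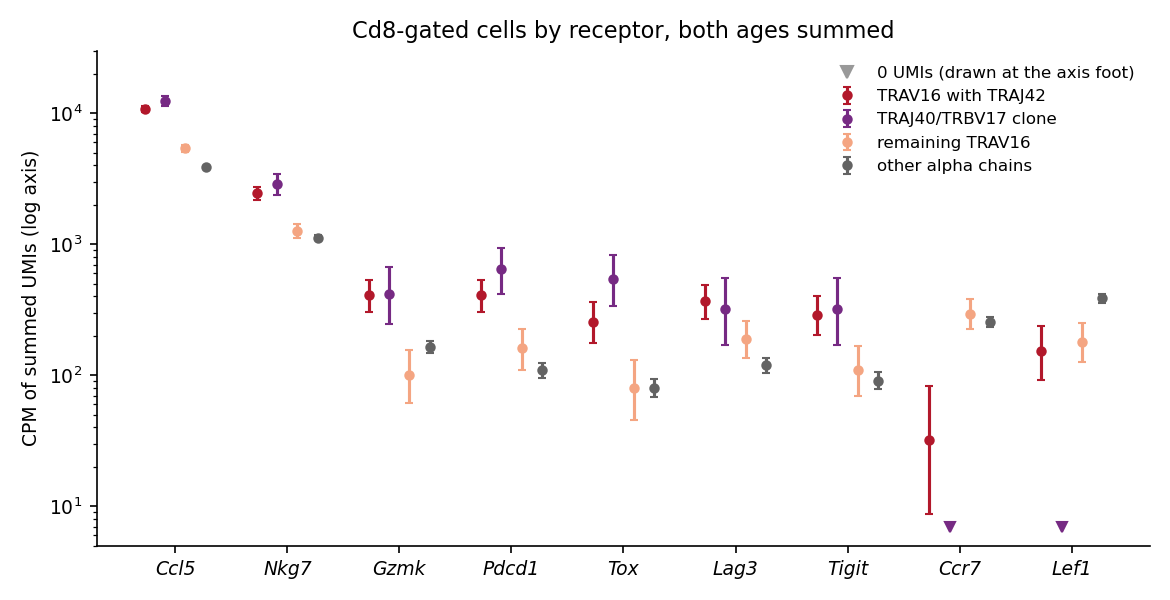
Summed CPM on a log axis (y axis) of 9 genes (x axis) in Cd8-gated TRAV16 cells with TRAJ42 (17 cells), the TRAJ40/TRBV17 clone (5), the remaining TRAV16 cells (44) and cells with another alpha (399), both ages summed, with exact 95% Poisson intervals for counting error. The remaining TRAV16 cells lie nearest the other alphas for Pdcd1, Tox and Tigit, and the TRAJ42 cells and the TRAJ40 clone lie above both.

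Ccr7 and Lef1 were lower in TRAJ42 cells than with other alphas, as the plot of CPM by receptor shows. Ccr7 was at 32.1 CPM in TRAJ42 cells and at 296 in the remaining TRAV16 cells, against 256 with other alphas. Lef1 was at 152 CPM in TRAJ42 cells, 180 in the remaining TRAV16 cells and 387 with other alphas. Tcf7 and Slamf6, also genes of stem-like T cells, did not share this: in TRAJ42 cells they were at 136 and 128 CPM, against 157 and 117 with other alphas. The TRAJ40 clone had 0 UMIs of Ccr7 and Lef1 among 40501, which allows up to 74.1 CPM of each. Lef1 was thus lower than with other alphas in each of these 3 groups, and Ccr7 in the TRAJ42 and TRAJ40 cells.

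Depth differed between these groups. The median depth was 5746 UMIs in TRAJ42 cells, 6059 in the TRAJ40 clone, 3567 in the remaining TRAV16 cells and 3547 in cells with another alpha. Its part in the differences of CPM was not tested. In the TRAJ40 clone 1 cell gave 42.2% of the UMIs. The deepest TRAJ42 cell gave 23.9% of that group's UMIs, and without it Pdcd1 was at 390 CPM, Tox at 264, Lag3 at 474, Nkg7 at 2857 and Ccl5 at 14149.

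Among the TRAJ42 cells, these values differed by CDR3. The 10 Cd8-gated cells with the shared TRAJ42 alpha had UMIs of Pdcd1 in 9, of Tox in 9 and of Lag3 in 8, and the 7 with another CDR3 in 3, 3 and 2. Tox was at 352 CPM (236 to 506) in the first and 70.8 (14.6 to 207) in the others, Lag3 at 462 (327 to 634) and 189 (81.5 to 372), and Pdcd1 at 462 (327 to 634) and 307 (163 to 525). Ccr7 was at 12.2 and 70.8 CPM, and Lef1 at 72.9 (26.7 to 159) and 307 (163 to 525). The intervals did not overlap for Tox and Lef1. The groups differed in depth too, with medians of 6270 and 3215 UMIs. The deepest cell gave 36.2% of the UMIs of the first group and 40% of those of the other. Lef1 UMIs came from cells with 1, 2 and 3 in the first group and from cells with 3, 4 and 6 in the other. The Pdcd1 UMIs of the other group came from cells with 1, 5 and 7. The intervals leave out variation between cells, so the Lef1 difference rests on these few cells.

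Leaving these receptors out changed which genes met the criterion in the Cd8 comparison, and so did other settings. Without TRAJ42, 80 genes did (52 higher and 28 lower), in place of 73, and 29 of them were among the 73. Of 11 exhaustion genes 1, Tox2, was 2-fold higher at both ages, and the list's medians were 0.37 and 0.77. Pdcd1 then had log2 ratios of 0.97 and 1.09 (-0.04 to 1.97). Without the largest clones 2 genes were, Nr4a2 and Tox2, and Pdcd1 had 0.79 at 8 weeks. Lef1 remained 2-fold lower without TRAJ42. Of the 73 genes, 39 were also called when cells with 2 or more beta chains were left out, and 45 with equal weight of cells. The change in the called genes is thus not particular to leaving out TRAJ42.

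The Cd4-gated TRAV16 cells were few. Those without a Foxp3 UMI numbered 16 at 8 weeks (81785 UMIs, against 521 cells and 2649812 UMIs with another alpha) and 22 at 16 weeks (83604 against 511 cells and 2250403 UMIs). Of 7206 genes tested, 177 were 2-fold or more higher at both ages (2.46%) and 171 lower (2.37%), and with both intervals past 0 these became 5 and 3. The called genes had a median of 3 UMIs in carriers, and 141 of the 171 lower genes had none at either age. The median log2 ratio of all tested genes was 0.15 at both ages.

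None of the 12 tested exhaustion genes was called in Cd4-gated TRAV16 cells, and the list's medians were 0.50 and -0.05. Pdcd1 was at 477 against 202 CPM at 8 weeks and 108 against 149 at 16 weeks, log2 ratios of 1.26 (0.73 to 1.71) and -0.39 (-1.61 to 0.47). Lag3 had log2 ratios of 1.15 and 0.66, and Tigit of 1.37 and -0.08. In the stem-like and naive list 0 of 13 tested genes met the criterion, with medians of 0.24 and 0.24.

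Of 9 tested cell division genes, 5 had log2 ratios past 2-fold lower at both ages and 0 past 2-fold higher: Tyms, Mki67, Cdk1, Top2a and Rrm2, against 2.37% of all genes. They passed the UMI minimum through the other cells, and of the 5 only Rrm2 had intervals below 0 at both ages, so the count says nothing about the list. Top2a and Cdk1 had 0 UMIs in the carriers at both ages, and Rrm2 had 1 at 8 weeks and 0 at 16 weeks against 263 and 109 in other cells. The list's median log2 ratios were -2.25 and -2.02, which rest on the 0.5 UMIs added. Higher genes with both intervals past 0 were Pdcl3, Slc28a2, Fdps, Ddit4 and Ccl5, and for Ccl5 a single cell gave 72.2% and 71.4% of the UMIs. By the naming rule the other higher genes were Plbd2, Coq5 and Fuca1, and the other lower ones Igfbp7, Akap8, Cbx5, Hmces, Taf11 and Irf8, all at 0 UMIs in the carriers.

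The recurrent receptors of the TRAJ23 and TRAJ15 groups were set beside conventional Cd4-gated cells for 3 inhibitory receptor genes, though only 3 of the 10 TRAJ23 cells were Cd4-gated, 2 held a Foxp3 UMI and 1 cell gave 36.1% of the group's UMIs. Over its 10 cells of any gate, the TRAJ23-TRBV15 group had 382 CPM of Pdcd1, 592 of Lag3 and 513 of Tigit. The 6 cells with the TRAJ15 alpha, all at 8 weeks, had 559 of Pdcd1, 731 of Lag3 and 559 of Tigit. The values of conventional Cd4-gated cells that follow sum both ages. Conventional Cd4-gated TRAV16 cells outside these groups had 167 of Pdcd1, 357 of Lag3 and 266 of Tigit, and conventional Cd4-gated cells with another alpha 178, 259 and 198. For Pdcd1 the TRAJ23 group had 431 CPM at 8 weeks and 149 at 16 weeks, from 7 and 3 cells, against 202 and 149 in conventional Cd4-gated cells with another alpha.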

How the data were processed

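The authors deposited raw UMI counts per gene and barcode (whole numbers; software version 3.0.1 per the file headers) and contig tables with V and J genes, CDR3 and UMIs. The submitters' processing notes name mm10 and Seurat; the aligner and annotation behind the counts: not given in the sources used here. Members and gene lists were chosen with earlier results of these data known. Barcodes joined the receptor and RNA tables of an age, and cells needed at least 500 genes and at most 10% mitochondrial UMIs. No doublet caller was run; cells with 2 or more beta chains were left out as an alternative. Shares have Clopper-Pearson and differences Newcombe 95% intervals; a count of 0 allows up to 3. Of 169 distinct listed genes in 18 lists, 162 were found; receptor genes are not in the RNA feature tables. Germline sequence and positions came from GENCODE M21 (mm10), a reference of another strain. A germline match needed 9 J bases. Genes were called at 2-fold, the same way at both ages, with 20 or more UMIs at each. Text names J and beta V genes with 5 or more TRAV16 barcodes, clones of 3 or more, receptors at both ages, listed genes with 20 or more UMIs in carriers, and the 10 highest and lowest called genes without 1 cell giving over 25% of UMIs. Python 3.11.15, numpy 2.4.6, pandas 2.3.3, scipy 1.17.1 and matplotlib 3.10.9 were used; the gene comparison was tested on simulated data. Some listed genes are not reported here by name.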

Additional observations from a re-analysis of the deposited data

Results flagged for a closer look

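A productive TRAV16 alpha chain that was not the chain with most UMIs, and so outside the values above, was found in 16 barcodes at 8 weeks and 15 at 16 weeks. At 8 weeks 7 of these chains used TRAJ15, and 8 of the barcodes were Cd4-gated and 4 Cd8-gated. At 16 weeks 5 were Cd4-gated, 1 Cd8-gated and 7 had UMIs of both, and 9 had 2 or more beta chains.

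In Cd8-gated cells, 7 listed genes had log2 ratios of TRAV16 against other cells that lay on opposite sides of 0 at the 2 ages, each with an interval off 0. The difference was not tested. Rgs1, a regulator of chemokine receptor signalling, was at -0.59 at 8 weeks and 1.25 at 16 weeks. S100a6 was at -0.23 and 1.73, and Lgals3, which encodes galectin-3, at -0.85 and 2.01. The CD3 chains Cd3g and Cd3e were at -0.26 and 0.50 and at -0.19 and 0.43. Tcf7, the transcription factor of stem-like T cells, was at 0.56 and -1.06, and the chemokine Ccl4 at -2.10 and 0.91. In conventional Cd4-gated cells 1 gene did so, Klf2, a factor of lymph node homing, at -0.75 and 0.46, a difference that was likewise not tested. These 8 came from 144 pairs of listed gene and gate that were searched. Single cells gave much of some sums. For Ccl4 at 8 weeks, 1 cell gave 53% of the UMIs of cells with another alpha. At 16 weeks 1 TRAV16 cell gave 48.1% of the TRAV16 UMIs for Lgals3, 32.9% for S100a6 and 36.4% for Klf2. For Cd3g, Cd3e and Tcf7 no cell gave over 18.2% of a sum at either age.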

How the results depend on the processing

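Shares of TRAV16, TRAJ42, TRBV13-3, Cd8-gated and expanded cells moved by less than their counting intervals under the alternatives tried, except that the Cd8 share at 16 weeks became 77.8% (28 of 36) with 2 or more UMIs needed for the gate. Under the same alternatives the Cd8 share ranged from 60.3% to 80.0% at 8 weeks and from 52.4% at 16 weeks, and the expanded share from 29.3% to 41.7% and from 5.80% to 16.2%. Receptors at both ages went from 0 to 1 by amino acids and to 1 by the alpha chain alone. The Cd8 gene count of 73 became 727 with all genes that had a UMI and 18 with both intervals past 0, a criterion added after seeing the data. The Cd4 count of 348 became 2543 and 8 under the same settings. The cause was not tested. With 1 UMI added in place of 0.5, the split of higher to lower genes went from 45 and 28 to 50 and 12 in Cd8-gated cells, and from 177 and 171 to 412 and 20 in Cd4-gated cells. No paired analysis was possible because each age has 1 library of each kind. Small cell numbers limit every value on receptors of under 20 cells.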

Other observations

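The TRAJ15 alpha of TRAV16 was often present beside another alpha chain. The same CDR3 bases, the chain of most UMIs in 6 cells at 8 weeks, were a further productive alpha in 6 other barcodes of that library, with 2 to 9 UMIs each. In 3 of these the beta was that of the TRAJ15-TRBV13-1 receptor and the top alpha was TRAV13-2 joined to TRAJ11. The other 3 had a different top alpha and a different beta. Of the 6 barcodes 4 were Cd4-gated and 0 Cd8-gated. The beta of the TRAJ15 receptor, by its amino acids, was in 8 cells in all, 5 with the TRAV16 chain on top and 3 with TRAV13-2. The receptors counted as TRAV16 thus depend, for this clone, on which of the alphas gave more UMIs. The 12-cell TRAJ42 alpha was a further chain in 2 barcodes, both at 16 weeks, and the TRAJ40 alpha in 0. The 5-cell TRAJ23 alpha was a further chain in 2 barcodes, 1 at each age, and in 1 of them with the beta of its clone. The 2-cell base version of that alpha was a further chain in 1 barcode at 8 weeks.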
